A study of Homo sapiens with 4 samples.

Results

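The MYC and MAX network is a set of transcription factor genes, taken here as the 10 rows of the deposited table named MYC, MAX, MXD1, MXD3, MXD4, MXI1, MNT, MLX, MGA and MLXIP. All 10 were found among 17825 rows, and all 10 passed the filter on low counts that left 14207 genes for testing. RNA was measured by RNA-seq in KYSE150, an established line of human esophageal squamous cell carcinoma grown in RPMI1640 with 10% FBS. CEBPG siRNA cells (2 libraries) had received an siRNA that targets CEBPG, numbered 1 in the file headers, and negative control cells (2 libraries) carry only that label. CEBPG encodes a C/EBP family factor that dimerizes with ATF4. Nothing in the labels tells whether replicate libraries are separate cultures, so p-values here cover differences among 4 libraries that could be technical.

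Library totals were 15432762 and 15489075 counts in CEBPG siRNA cells and 15536501 and 15515901 counts in negative control cells. The siRNA target was reduced. CEBPG had 214 and 204 counts in CEBPG siRNA cells, against 792 and 751 counts in negative control cells, a log2 fold change of -1.98 (standard error 0.08, edgeR adjusted p = 1.82e-11). Squamous epithelial markers were found in the RNA at uneven levels. Of 10 such markers 9 had a row, with a summed deposited RPKM (reads scaled to transcript length and library size) of 357.68 to 366.08 in CEBPG siRNA cells and 301.42 to 307.56 in negative control cells. KRT5 (111.12 to 142.57 RPKM over the 4 libraries) and CDH1 (123.88 to 148.47 RPKM) were the highest. The keratin genes KRT14, KRT17 and KRT6A were at 4.43 RPKM or less in every library. SOX2 was the marker not analysed here. Of these 9 markers 5 (55.6%) rose and 2 (22.2%) fell at an adjusted p under 0.05, against 25.5% and 28.8% of all genes tested. Those that fell were the keratin genes KRT14 (log2 fold change -1.09) and KRT17 (-0.99). Those that rose were TP63 (0.59), DSG3 (0.41), KRT5 (0.20), CDH1 (0.13) and DSP (0.11). The part of these markers in the results below was not tested. Of 10 stroma and immune markers 5 had a row, summing to 1.85 to 2.10 RPKM in CEBPG siRNA cells and 1.44 to 1.69 RPKM in negative control cells. PTPRC, CD68, COL1A2 and PECAM1 were not analysed here. Of 9 retina markers, included because the design text calls the profiles retinal, 3 had a row, summing to 2.81 to 3.0 RPKM in CEBPG siRNA cells and 1.92 to 2.44 RPKM in negative control cells. CRX, RLBP1, RPE65, GNAT1 and RCVRN were not analysed here.

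MYC is a basic helix-loop-helix leucine zipper protein that binds DNA at the E-box as a dimer with MAX and promotes ribosome production, metabolism and cell division. The MXD proteins and MNT compete with MYC for MAX and for the E-box and recruit the SIN3-HDAC corepressor, and MGA joins MAX to a polycomb complex. MLX is a MAX-like protein whose partner MLXIP, also called MondoA, responds to sugar phosphates, and MLX also dimerizes with some of the MXD proteins. MYC is frequently amplified or overexpressed in squamous carcinomas of the esophagus.

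Promoter sequences of the members that rose the most are shown first, with the motifs found in them. Promoter windows of 300 bases (RefSeq, GRCh38.p14, 250 bases before to 50 after the start of a transcript) were matched for 9 of 10 members, all but MYC, with 14 windows in all. Each was searched on both strands for CACGTG, the E-box, for TGATGCAA or TTGCATCA, an element bound by C/EBP and ATF dimers, and for TGACGTCA, the cyclic AMP response element. The E-box was present in 3 of the 14 windows, those of MXD4, MNT and MLX, against 7.26% of 35116 windows of all genes. The cyclic AMP response element was present in the window of MLXIP, against 1.85% of all windows, and the C/EBP and ATF element was in none of the 14, against 0.866% of all windows. The windows of the strongest risers, MXD4 on chr4:2262060-2262359 (minus strand) and MLXIP on chr12:122078506-122078805 (plus strand), follow with the E-box of the first and the cyclic AMP response element of the second in capitals. Stretches of 60 bases around the E-box of MNT and MLX, members that did not pass the test, are given for comparison, from the windows chr17:2401011-2401310 (minus strand) and chr17:42566850-42567149 (plus strand).
MXD4 promoter: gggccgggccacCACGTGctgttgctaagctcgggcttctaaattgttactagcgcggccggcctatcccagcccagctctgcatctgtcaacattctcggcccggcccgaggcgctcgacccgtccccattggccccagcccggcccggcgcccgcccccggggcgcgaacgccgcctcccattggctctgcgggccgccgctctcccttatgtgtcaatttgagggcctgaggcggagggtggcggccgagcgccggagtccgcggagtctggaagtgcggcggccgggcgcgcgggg
MLXIP promoter: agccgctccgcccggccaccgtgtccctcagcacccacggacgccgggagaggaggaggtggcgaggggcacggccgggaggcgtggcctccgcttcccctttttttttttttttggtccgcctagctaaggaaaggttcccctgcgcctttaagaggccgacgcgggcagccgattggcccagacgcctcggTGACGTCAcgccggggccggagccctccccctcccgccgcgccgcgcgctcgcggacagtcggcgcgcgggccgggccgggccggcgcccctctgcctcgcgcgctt
MNT promoter stretch: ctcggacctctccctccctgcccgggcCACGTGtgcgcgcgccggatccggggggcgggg
MLX promoter stretch: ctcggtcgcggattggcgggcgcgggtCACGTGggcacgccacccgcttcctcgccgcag
The E-box began 238 bases before the start site in MXD4, 193 before it in MNT and 50 before it in MLX, and the element of MLXIP 57 bases before it. Letters matching a motif do not show that a protein binds there.

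In an earlier analysis of the same data, genes whose transcripts hold GGCTATT or its shifted form GCTATTA tended to be lower in CEBPG siRNA cells, and the siRNA target holds the first of them in its 3' UTR. In the transcripts chosen for the network (GENCODE v29), 3 of 10 members held either word, namely MYC, MXD1 and MXI1. These were the 3 members that fell, as described below. MXD1 has GGCTATT in its coding sequence at chr2:69938216-69938222 (GRCh38, plus strand), MXI1 has GCTATTA in its 3' UTR at chr10:110285464-110285470 (GRCh38, plus strand), and the MYC transcript has GGCTATT in its 5' UTR. The sites follow with their flanks as sense strand DNA and the word in capitals, beside that of CEBPG.
CEBPG site: gacccattggaGGCTATTttctgggatca
MXD1 site: gcagtgatgagGGCTATTccagcaccagc
MXI1 site: gctaataatgaGCTATTAaaactcagcct
Of 12792 tested genes matched to a transcript, 2567 (20.1%) held either word. Their median was -0.18 on the log2 scale, and 47.8% were lower. The 10225 genes without them had a median of 0.02 and 27.1% lower. Among coding transcripts of the GENCODE basic set, the words were in 5 of 7 of MYC, 2 of 2 of MXD1, 3 of 5 of MXI1 and 1 of 13 of MAX, and in none of the other members. The same earlier analysis also gave the words CGGAGAA and TCGGAGA. The 2669 tested genes with either of these were 39.4% higher and 24.8% lower. None of the transcripts chosen for the members held them, those of the members that rose included, while 1 of 5 MXI1 transcripts of the basic set did. All of these words were picked on these data, so the presence of GGCTATT or GCTATTA in 3 members is a description. The part of the words in the changes was not tested.

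At an adjusted p under 0.05, 3 members rose and 3 fell in CEBPG siRNA cells, 6 of 10 in all. Over the 14207 genes tested, 25.5% rose and 28.8% fell, 54.3% in all, so the share of members called was near that of all genes. With total counts only, 5 members rose and 3 fell, and over all genes 4939 rose and 3079 fell, against 3617 and 4098 with TMM factors. The CPM (counts scaled to library size with TMM factors) did not overlap between groups for 4 members that were higher and 3 that were lower, against 38% and 38.2% of all genes. In bulk RNA, a change in all cells and a change in the share of cells with the transcript cannot be told apart.

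**Figure D1:**
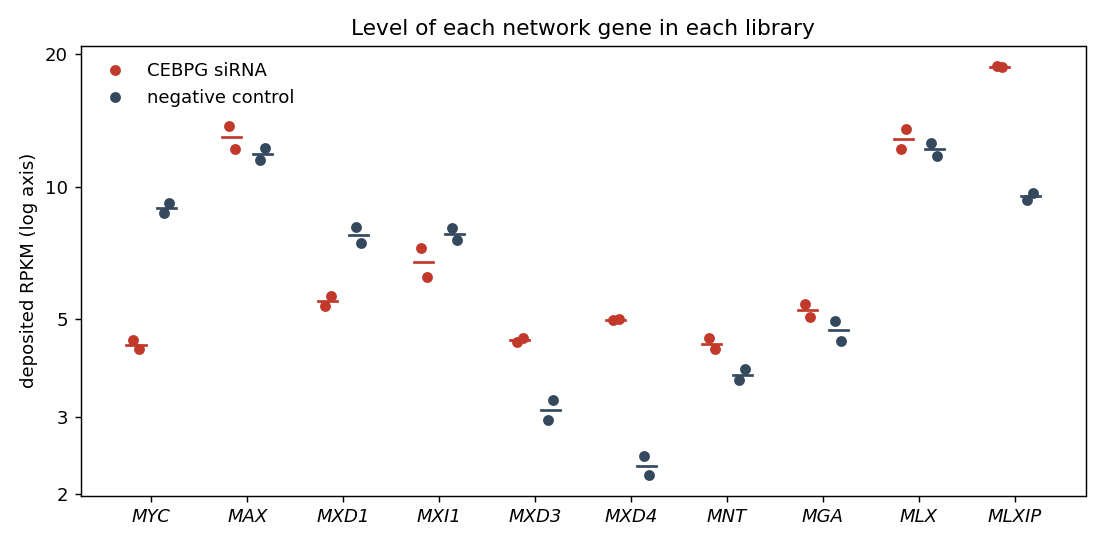
Deposited RPKM of the 10 members (x axis) on a log axis, with a point per library and a line at the mean of the 2 libraries of CEBPG siRNA cells (left, red) and negative control cells (right, dark). MYC, MXD1 and MXI1 lie lower and MXD3, MXD4 and MLXIP higher in CEBPG siRNA cells, while MAX and MLX overlap.

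MYC fell the most of the 10. Its level was 4.48 and 4.27 RPKM in CEBPG siRNA cells, against 8.70 and 9.21 RPKM in negative control cells, from 207 and 198 counts against 405 and 428 counts. The groups did not overlap, and both CEBPG siRNA libraries were at close to the same value. The log2 fold change was -1.13 (standard error 0.09, 95% interval -1.32 to -0.95, edgeR adjusted p = 3.94e-08), a 2.19-fold lower level. Of the genes tested, 1.97% had a lower log2 fold change than MYC. The authors' deposited table gives -1.14 for MYC with a standard error of 0.15, and the DESeq2 alternative gave the same values. MYC lies at 127735434 to 127741434 on the plus strand of chromosome 8 (GRCh38).

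MAX, the shared partner through which MYC and the MXD proteins reach DNA, did not pass the test. It had 13.77 and 12.19 RPKM in CEBPG siRNA cells and 11.53 and 12.23 RPKM in negative control cells, and the groups overlapped. Its log2 fold change was 0.03 (standard error 0.07), with a 95% interval of -0.11 to 0.17 and an edgeR adjusted p of 0.733, and the sign turned without negative control replicate 1 or CEBPG siRNA replicate 1. The ratio of MYC to MAX in RPKM was 0.325 and 0.350 in CEBPG siRNA cells and 0.755 and 0.753 in negative control cells. It depended on the transcript length used: from CPM per kilobase of the GENCODE transcript it was 0.144 and 0.155 in CEBPG siRNA cells and 0.333 in both negative control libraries. A GENCODE gene on the opposite strand, AL139022.1, overlaps an exon of the MAX transcript, and reads from it cannot be told apart, since no source used here tells if counting used strand. The same holds for AC006435.1 at MNT and PSMC3IP at MLX, which also lie on the opposite strand.

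The MXD repressor genes split into 2 that fell and 2 that rose. MXD1, which encodes MAD1, a repressor known for its induction during differentiation, had 5.36 and 5.66 RPKM in CEBPG siRNA cells, against 8.12 and 7.44 RPKM in negative control cells. The groups did not overlap, and the log2 fold change was -0.60 (standard error 0.07, 95% interval -0.74 to -0.45, edgeR adjusted p = 2.55e-06). MXI1, also called MXD2, had 7.27 and 6.23 RPKM in CEBPG siRNA cells, against 8.04 and 7.55 RPKM in negative control cells. The gap between the groups was small beside the difference between the CEBPG siRNA libraries. Its log2 fold change was -0.31 (standard error 0.08, edgeR adjusted p = 0.00404). The MXI1 call was lost without negative control replicate 1, without negative control replicate 2 and without CEBPG siRNA replicate 2. Its log2 fold change was -0.26, -0.36 and -0.20 in those fits, in that order. Each of them leaves 1 library in a group and so has less power to make a call.

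MXD4, a repressor of the same family, rose 2.0-fold. It had 4.97 and 5.01 RPKM in CEBPG siRNA cells, against 2.44 and 2.21 RPKM in negative control cells, from 542 and 548 counts against 268 and 242 counts. The groups were far apart and each was tight. The log2 fold change was 1.003 (standard error 0.08, 95% interval 0.83 to 1.17, edgeR adjusted p = 5.85e-08), and 3.52% of the genes tested had a higher one. The MXD4 transcript also holds the microRNA gene MIR4800 on the same strand.

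MXD3, the member of the family linked to S phase and proliferation in mouse, had 4.43 and 4.53 RPKM in CEBPG siRNA cells, against 2.95 and 3.27 RPKM in negative control cells. The groups did not overlap. The log2 fold change was 0.43 (standard error 0.09, edgeR adjusted p = 0.000782), and it passed the test in all 10 alternatives, with adjusted p-values of up to 0.0474. MNT, the widely expressed repressor partner of MAX, had 4.53 and 4.27 RPKM in CEBPG siRNA cells and 3.63 and 3.85 RPKM in negative control cells. The groups did not overlap, but the difference did not pass the test, with a log2 fold change of 0.14 (standard error 0.07, 95% interval -0.01 to 0.28, edgeR adjusted p = 0.105). MNT passed with upper-quartile factors (0.21, adjusted p = 0.0165) and with total counts only (0.24, adjusted p = 0.00737), and its value was -0.01 with the trend on GC content and length removed.

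**Figure D2:**
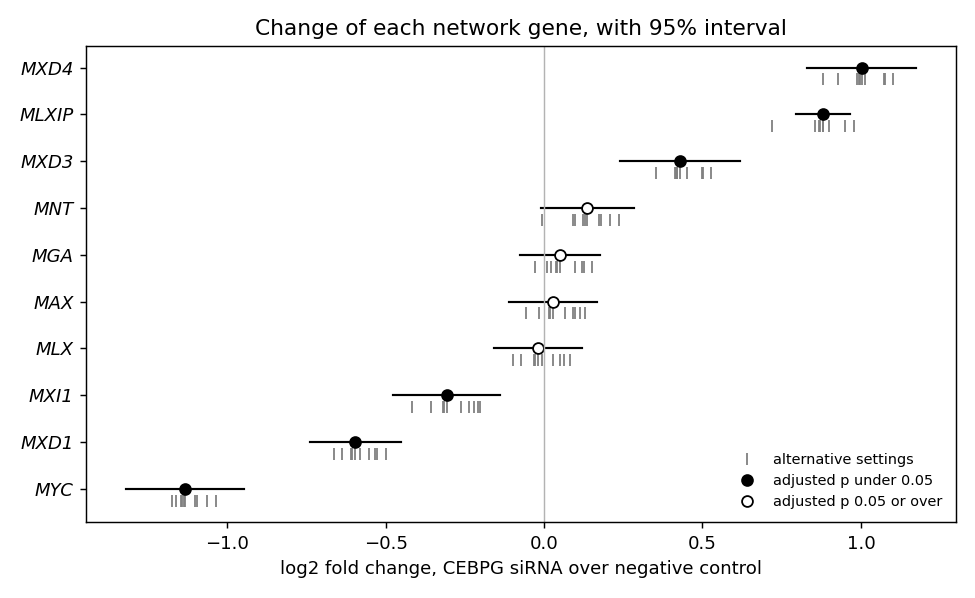
Log2 fold change of each member, CEBPG siRNA over negative control (x axis), with its 95% interval, filled where the adjusted p was under 0.05, and grey ticks for 10 alternative settings. MYC at -1.13 and MXD4 at 1.003 lie at the ends, and the 4 members with open points lie between -0.02 and 0.14.

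The 5 repressor genes together kept nearly the same summed level while their makeup shifted. The sum of MXD1, MXI1, MXD3, MXD4 and MNT was 26.56 and 25.70 RPKM in CEBPG siRNA cells and 25.18 and 24.32 RPKM in negative control cells. MXD1 and MXI1 made up 47.6% and 46.3% of it in CEBPG siRNA cells, against 64.2% and 61.6% in negative control cells. MXD3 and MXD4 made up 35.4% and 37.1% in CEBPG siRNA cells, against 21.4% and 22.5% in negative control cells. Set against MYC, the sum was 5.93 and 6.02 times the MYC level in CEBPG siRNA cells and 2.89 and 2.64 times in negative control cells. MXD4 was at 0.927 and 0.885 of the MXD1 level in CEBPG siRNA cells and at 0.300 and 0.297 in negative control cells. These sizes depended on the transcript lengths behind RPKM, while each difference between groups kept its direction. From CPM per kilobase of the GENCODE transcript, the sum was 9.15 and 9.29 times the MYC level in CEBPG siRNA cells and 4.11 and 3.84 times in negative control cells. MXD1 and MXI1 then made up 38.3% and 36.4% of it in CEBPG siRNA cells, less than the 46.4% and 48.8% of MXD3 and MXD4. In negative control cells MXD1 and MXI1 made up 54% and 50.9%, more than the 32% and 34.1% of MXD3 and MXD4. On that scale MXD4 was above MXD1 in CEBPG siRNA cells, at 1.43 and 1.36 of its level, and below it in negative control cells, at 0.463 and 0.457. Protein was not measured.

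**Figure D3:**
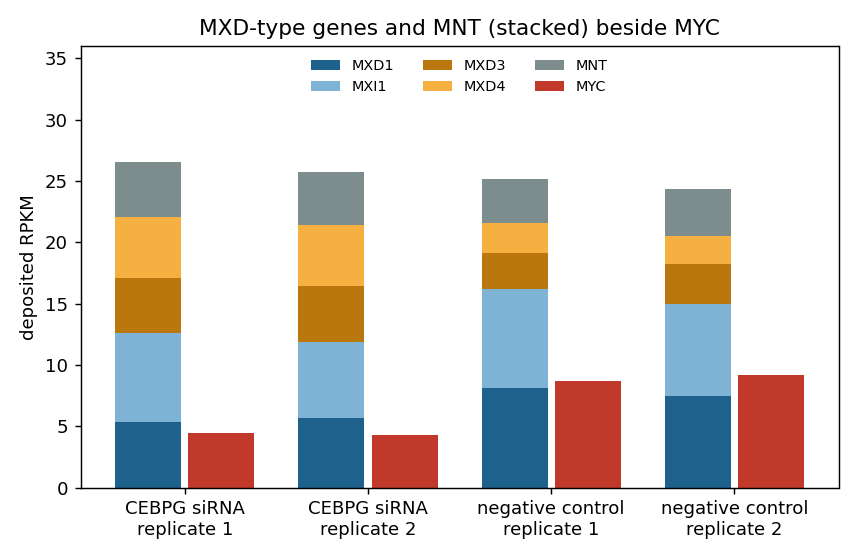
Deposited RPKM (y axis) of MXD1, MXI1, MXD3, MXD4 and MNT as stacked bars beside MYC, in each of the 4 libraries. The stacks reach 24.32 to 26.56 RPKM in every library, while the MYC bar is 4.27 to 4.48 RPKM in CEBPG siRNA cells and 8.70 to 9.21 RPKM in negative control cells.

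MGA, the scaffold that joins MAX to the polycomb complex PRC1.6, had 5.41 and 5.06 RPKM in CEBPG siRNA cells and 4.96 and 4.47 RPKM in negative control cells. Its log2 fold change was 0.05 (standard error 0.06, 95% interval -0.07 to 0.18, edgeR adjusted p = 0.489), and with total counts only it passed the test (0.15, adjusted p = 0.0365). The sign for MGA turned without negative control replicate 2. The CPM of the groups overlapped, although the RPKM values did not.

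In the MLX branch, the partner changed and MLX did not pass the test. MLX had 12.16 and 13.54 RPKM in CEBPG siRNA cells and 12.57 and 11.75 RPKM in negative control cells, with overlapping groups and a log2 fold change of -0.02 (standard error 0.07, 95% interval -0.16 to 0.12, edgeR adjusted p = 0.833). MLXIP, which encodes MondoA, had 18.78 and 18.69 RPKM in CEBPG siRNA cells, against 9.35 and 9.66 RPKM in negative control cells, from 4033 and 4028 counts against 2022 and 2085 counts. MLXIP had the most counts of the 10 genes and the smallest error, with no overlap between groups. Its log2 fold change was 0.88 (standard error 0.04, 95% interval 0.79 to 0.97, edgeR adjusted p = 1.15e-10), and 5% of the genes tested had a higher one. The ratio of MLXIP to MLX in RPKM was 1.54 and 1.38 in CEBPG siRNA cells and 0.744 and 0.822 in negative control cells. The sign for MLX turned with upper-quartile factors, with total counts only and without negative control replicate 1 or CEBPG siRNA replicate 1.

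The members differed in GC content. MXD3, MXD4, MNT and MLXIP were in the uppermost of 4 equal bins of genes by GC content of the transcript (57.5% to 83.9%), where the median log2 fold change was 0.04, with 29% higher and 24.3% lower. MXD1, MXI1 and MGA were in the second bin from the bottom (42.6% to 49.3%), with a median of -0.04, 24.2% higher and 33.9% lower. MYC, MAX and MLX were in the bin above that (49.3% to 57.5%), with 28% higher and 30% lower. With the trend on GC content and length removed, MXD4 had a log2 fold change of 0.88, MLXIP of 0.72, MXD3 of 0.42 and MXD1 of -0.58, all past the test.

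The order of the levels by RPKM differed between the groups. In CEBPG siRNA cells the order by mean RPKM was MLXIP (18.7), MAX (13.0), MLX (12.8), MXI1 (6.75), MXD1 (5.51), MGA (5.24), MXD4 (4.99), MXD3 (4.48), MNT (4.40) and MYC (4.38). In that order MAX and MLX overlapped, as did MXD1 and MGA, MXD3 and MNT, and MNT and MYC. In negative control cells the order was MLX (12.2), MAX (11.9), MLXIP (9.51), MYC (8.96), MXI1 (7.80), MXD1 (7.78), MGA (4.72), MNT (3.74), MXD3 (3.11) and MXD4 (2.33), and only MLX with MAX and MXI1 with MXD1 overlapped between neighbours. MYC was thus last by mean RPKM in CEBPG siRNA cells, overlapping both MNT and MXD3, and ranked 4 in negative control cells. The order depends on the transcript length behind RPKM. With CPM per kilobase of the GENCODE transcript, 2 of 10 members, MLX and MYC, kept their rank in CEBPG siRNA cells and 3 of 10, MLXIP, MNT and MXD4, in negative control cells. MAX was then at the top in both groups, with 36 in CEBPG siRNA cells (MLXIP 29.9) and 35.3 in negative control cells. MYC, at 5.36, was again last in CEBPG siRNA cells, and MXD4, at 4.19, was again last in negative control cells.

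Relatives outside the 10 were also measured. MYCL, the paralog known from small cell lung cancer, and MLXIPL, which encodes the MondoA relative ChREBP, were named after their values were seen. MYCL had 53 and 42 counts in CEBPG siRNA cells, against 74 and 66 counts in negative control cells, a log2 fold change of -0.65 (standard error 0.19, edgeR adjusted p = 0.00945). That call was lost with DESeq2 (adjusted p up to 0.127 over the alternatives) and without either negative control library or CEBPG siRNA replicate 2. MLXIPL had 82 and 92 counts in CEBPG siRNA cells and 83 and 99 counts in negative control cells and did not pass the test. MYCN was not analysed here. Among all 10 tested genes of the list of E-box relatives, 2 (20%) rose and 4 (40%) fell, against 25.5% and 28.8% of all genes tested. Their median was -0.17, and 0 rose with DESeq2. SREBF1 and SREBF2, which encode the sterol regulatory factors, had log2 fold changes of -0.31 and -0.18. TFAP4, which encodes AP-4, had -0.36, and its transcript holds GGCTATT or GCTATTA. TFEB, a lysosomal regulator, had 0.52. The TFEB call was lost with DESeq2 and without either negative control library or CEBPG siRNA replicate 2, that of SREBF2 with total counts only and without negative control replicate 1 or CEBPG siRNA replicate 1, and that of TFAP4 without negative control replicate 2.

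Most of the textbook targets of MYC listed here were lower. Of 46 tested, 39 fell (84.8%) and 3 rose (6.52%), against 28.8% and 25.5% of all genes tested. Their median was -0.41 on the log2 scale, against 0.005 for all genes. The list was chosen with earlier results of these data known, so these shares are a description and not a test. CCND2, which encodes cyclin D2, had 153 ± 2.48 CPM in CEBPG siRNA cells and 322 ± 5.36 CPM in negative control cells (SD, n = 2 each), a log2 fold change of -1.07 (standard error 0.04, edgeR adjusted p = 1.1e-11). The phosphatase gene CDC25A (-1.02), the lactate dehydrogenase gene LDHA (-0.93) and the telomerase gene TERT (-0.79) fell as well. Targets that act in ribosome production were among those lower, with log2 fold changes of -0.71 for NPM1, -0.43 for FBL and -0.41 for NCL, and so was ODC1, the polyamine enzyme (-0.35). These 4 were named after their values were seen. The 3 that rose were UBTF (0.37), a factor for ribosomal RNA transcription, E2F2 (0.38) and NOLC1 (0.47), also named after their values were seen. The part of MYC in these changes was not tested.

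Targets were mostly lower both with and without an E-box in the promoter window, and with and without the words GGCTATT and GCTATTA. Of the targets with a promoter window, 18 of 20 with an E-box were lower, and 13 of 17 without one. Over all tested genes with a window, 36% of 1182 with an E-box were lower, and 32.2% of 8169 without one. Of the targets, 14 held either word, CCND2, LDHA and NPM1 among them, and 12 of the 14 were lower. Of the 32 without either word 27 were lower, with a median of -0.39.

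**Figure D4:**
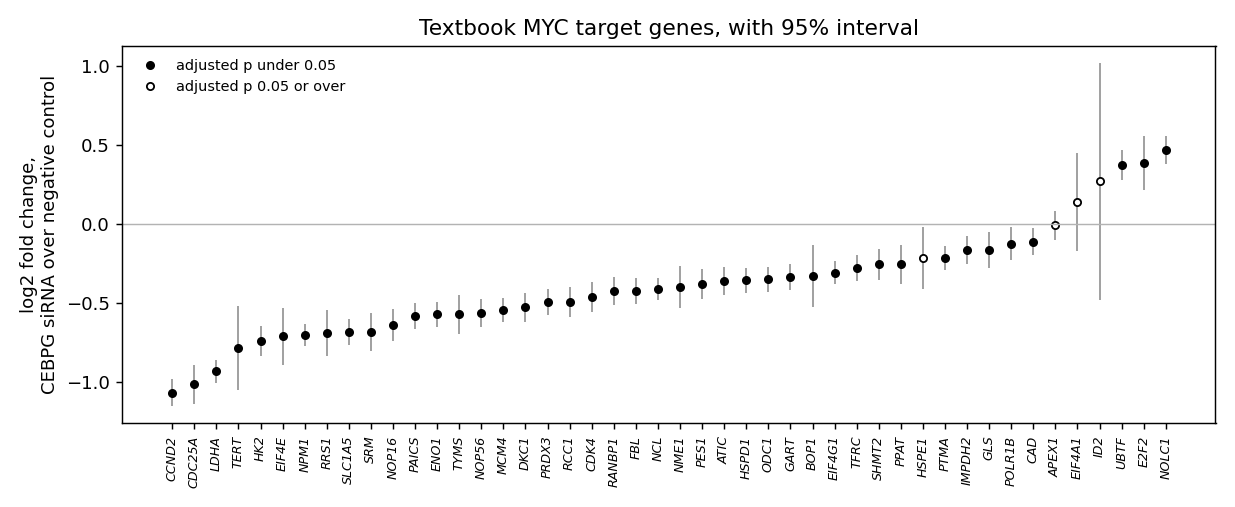
Log2 fold change, CEBPG siRNA over negative control (y axis), of the 46 tested textbook MYC targets (x axis) with 95% intervals, filled where the adjusted p was under 0.05. The points run from -1.07 for CCND2 to 0.47 for NOLC1, and 39 filled points lie below 0.

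Regulators of MYC RNA and transcription changed in both directions, with 6 of 10 tested genes (60%) lower and 3 (30%) higher (median -0.41). Of all genes tested, 28.8% were lower and 25.5% higher. CNBP, a nucleic acid binding protein that acts at the MYC promoter, had 174 ± 0.88 CPM in CEBPG siRNA cells and 337 ± 11.1 CPM in negative control cells (SD, n = 2 each), a log2 fold change of -0.95 (standard error 0.04, edgeR adjusted p = 3.93e-11). CTNNB1, which encodes beta-catenin (-0.68), and FUBP1, the far upstream element binding protein (-0.64), fell, and IGF2BP3, a relative of the protein that stabilizes MYC RNA, rose (0.49). CNBP and CTNNB1 hold GGCTATT or GCTATTA in their transcripts, and without these 2 genes 4 of 8 were lower and 3 higher. With 1 library left out, 1 to 3 genes of the list were higher.

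Of 19 genes for the turnover of MYC protein, 9 (47.4%) were lower and 4 (21.1%) higher, against 28.8% and 25.5% of all genes tested. Their median was -0.11, and without a filter on low counts 2 were higher. The ubiquitin ligase subunit genes FBXO32 (0.86), SKP2 (-0.75) and BTRC (-0.58) and the kinase gene AURKA (-0.62) had the largest changes among those named by rule. FBXW7, which encodes the ligase subunit that targets phosphorylated MYC and was named after its values were seen, had a log2 fold change of 0.35 (standard error 0.09, edgeR adjusted p = 0.0027). Of 7 genes of this list that hold GGCTATT or GCTATTA, 3 were higher, FBXO32 and FBXW7 among them, and 2 lower. Of the 12 without these words, 7 were lower and 1 higher. The FBXW7 call was lost without negative control replicate 2 or either CEBPG siRNA library.

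Cofactors of the network showed no common direction. Of all genes tested, 28.8% were lower and 25.5% higher. Among coactivators of MYC, 6 of 17 (35.3%) were lower and 6 (35.3%) higher (median -0.01). ACTL6A (-0.46), RUVBL1 (-0.45) and WDR5 (-0.32), subunits of chromatin complexes, fell, and CDK9, the elongation kinase, rose (0.45). The RUVBL1 transcript holds GGCTATT or GCTATTA. Among SIN3-HDAC genes, through which the MXD proteins repress, 8 of 17 (47.1%) were lower and 5 (29.4%) higher (median -0.12). With DESeq2 and with total counts only, 5 were lower. SAP30 (-0.88) and RBBP4 (-0.48) fell, and HDAC1 (0.55) and SUDS3 (0.53) rose. Of the 4 SIN3-HDAC genes that hold GGCTATT or GCTATTA, RBBP4 among them, 3 were lower and 1 higher. Of the 13 without these words, 5 were lower and 4 higher, with a median of -0.03. Among PRC1.6 genes, which work with MGA, 3 of 12 (25%) were lower and 4 (33.3%) higher (median 0.10). With upper-quartile factors, with total counts only and with the GC trend removed, 7 were higher. TFDP1, a dimer partner of E2F factors, fell to 61.7 ± 0.82 CPM in CEBPG siRNA cells, against 166 ± 0.19 CPM in negative control cells (SD, n = 2 each, log2 fold change -1.43, edgeR adjusted p = 2.69e-12). Its transcript holds GGCTATT or GCTATTA. RNF2 (-0.45) fell, and PCGF6 (0.52) and RYBP (0.43) rose, the call of RYBP being lost without either negative control library.

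Targets of the MLX branch changed in both directions, with 3 of 6 tested genes lower and 3 higher (50% each). Of all genes tested, 28.8% were lower and 25.5% higher. The hexokinase gene HK2 (-0.74), the fatty acid synthase gene FASN (-0.51) and the acetyl-CoA carboxylase gene ACACA (-0.41) fell. The ACACA transcript holds GGCTATT or GCTATTA. The transcription factor gene KLF10 rose (0.59), as did PFKFB3 (0.29), which was named after its values were seen. HK2 is also in the list of textbook MYC targets and is counted there among those that fell. ARRDC4, an arrestin-domain gene known as a direct target of MondoA, had 33.6 CPM in CEBPG siRNA cells and 29.1 CPM in negative control cells on average, a log2 fold change of 0.21 (standard error 0.07, edgeR adjusted p = 0.0186). The ARRDC4 call was lost with DESeq2 and without each of the 4 libraries in turn, with adjusted p-values of up to 0.18. TXNIP, the other well-known target of MondoA, was not analysed here.

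**Figure D5:**
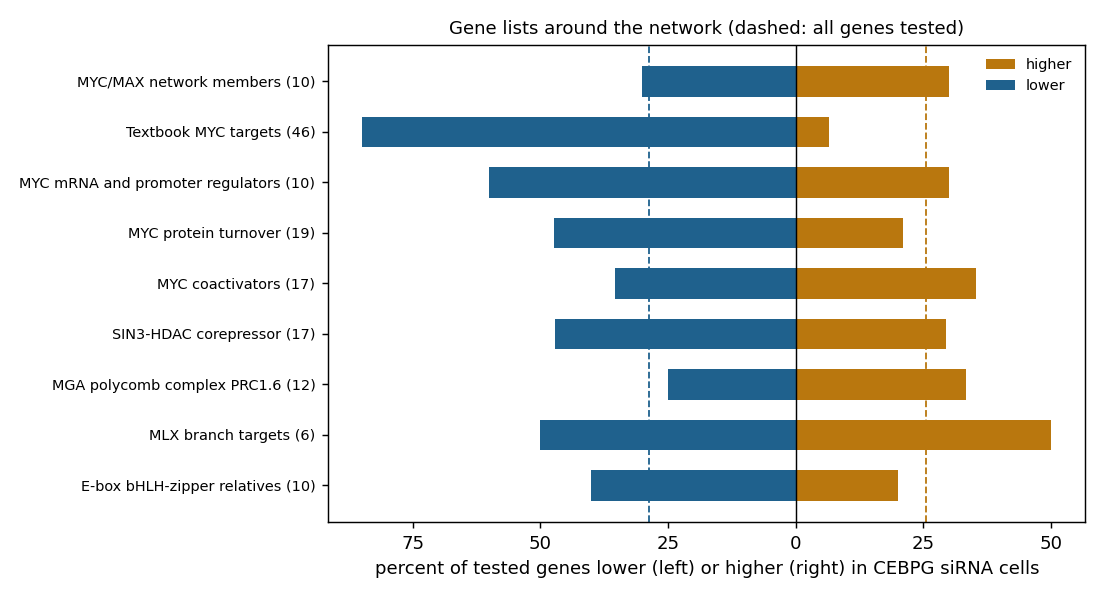
Percent of tested genes in each list that were lower (left) or higher (right) in CEBPG siRNA cells at an adjusted p under 0.05, with the number tested in brackets and dashed lines at the 28.8% lower and 25.5% higher of all genes tested. The textbook MYC targets reach 84.8% lower, whereas the 10 members are at 30% in each direction. Members and lists were chosen with earlier results of these data known.

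The genes most like MYC over the 4 libraries, by root mean square distance of centred log2 CPM among 10673 candidates averaging 5 CPM or more, were CITED2 (0.0115), IFIT1 (0.0163), KAT2B (0.0192), FAM96A (0.0192) and RASSF3 (0.0214). Their log2 fold changes were between -1.15 and -1.12. Those most like MAX were MECR (0.0123), ABCA5 (0.0129), MALAT1 (0.0131), ETFDH (0.0135) and ZNF407 (0.0145). With 4 libraries in 2 groups, this likeness rests mainly on the size of the change.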

How the data were processed

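Total RNA of KYSE150 cells was sequenced in 4 libraries, and the authors deposited read counts (whole numbers) and RPKM by gene name. The submitters' processing notes name RSEM 1.2.12, HISAT2 2.0.4, Bowtie2 2.2.5, DESeq and hg19 without roles, so the counts may be rounded estimates. Annotation and strand use in counting: not given in the sources used here. All deposited rows have at least 10 counts over the 4 libraries. A refit of the counts with DESeq2 gave the deposited log2 fold changes of the members. It also gave the same 2210 genes higher and 3216 lower in number as the deposited adjusted p-values under 0.05. The DESeq2 alternative is therefore not a result separate from the authors' values. The deposited signal column is a mean of normalized counts, and the deposited log2 fold change, score (the Wald statistic) and p-value columns set the siRNA against the control, per the file headers.

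The deposited counts went into edgeR's quasi-likelihood F test (two-sided; edgeR 4.0.16, R 4.3.3) with TMM factors, filterByExpr at a minimum count of 10 and no term but group. P-values were adjusted by Benjamini-Hochberg over all 14207 genes tested, and 0.05 was the threshold. The 27 rows that repeat a gene name were kept as separate rows. Levels of different genes were compared by the deposited RPKM, with CPM per kilobase as an alternative. The TMM factors were 1.04 and 1.03 in CEBPG siRNA cells and 0.967 and 0.966 in negative control cells. The deposited RPKM do not carry them, so RPKM lie slightly higher in CEBPG siRNA cells, beside negative control cells, than CPM do. For MLXIP the log2 fold change was 0.88 with TMM factors and 0.98 with total counts only. Counts of 2 libraries of a group differed by more than Poisson sampling (chi-square per gene 1.84 in the CEBPG siRNA pair and 1.50 in the negative control pair). The script was tested on simulated data. Transcripts came from GENCODE v29 (GRCh38), which matched 14843 of 17798 gene names, and 90.0% of those tested. No coordinates were converted between builds. For each gene 1 transcript was used, preferring in turn protein-coding status, the basic set, an annotated 3' UTR, APPRIS level and length.

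Members and lists were chosen with earlier results of these data known. Named genes were the 10 members and CEBPG, TXNIP and ARRDC4, the 4 called genes of each list with the largest change and a mean of at least 5 CPM, and the 5 genes nearest to MYC and to MAX. Alternatives were upper-quartile factors, total counts only, DESeq2 1.42.0, no filter, each library left out, the replicate number as a block and, added after the data were seen, CPM per kilobase for ratios between members and for the level order in CEBPG siRNA cells, and offsets for GC content and transcript length, fitted in mgcv 1.9.3, that remove the trend on both.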

Additional observations from a re-analysis of the deposited data

How the results depend on the processing

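The directions and calls of MYC, MXD1, MXD3, MXD4 and MLXIP held in all 10 alternatives. Total counts only moved the median over all genes tested to 0.104 on the log2 scale, and on that scaling 5 members were higher, MNT and MGA (0.236 and 0.150) added to the main 3, while upper-quartile factors added MNT (0.207). MLX was 0.051 with upper-quartile factors and 0.081 with total counts only, and MNT was -0.007 with the GC and length trend removed. Leaving out 1 library gave log2 fold changes of -0.056 to 0.113 for MAX and -0.099 to 0.063 for MLX. The values were -0.027 to 0.126 for MGA and -0.416 to -0.201 for MXI1. Such fits leave 1 library in a group, so they have less power to make a call. Genes higher were 2210 with DESeq2 and 1737 to 2345 with 1 library left out, and genes lower 2572 to 3049. With 1 library left out, the counts of the E-box list were 0 to 1 higher and 2 to 3 lower, of MYC turnover 1 to 3 higher, of coactivators 2 to 5 higher, of SIN3-HDAC 3 to 5 higher and 3 to 6 lower, of PRC1.6 2 to 4 higher, and of MYC RNA regulators 1 to 3 higher. The E-box list had 0 higher with DESeq2 (0 also at an unadjusted p under 0.05, against 2 with edgeR) and, with edgeR, 0 to 1 at an unadjusted p when 1 library was left out; it had 1 without a filter on low counts. The turnover list had 2 higher without a filter, SIN3-HDAC 5 lower with DESeq2 and with total counts only, and PRC1.6 7 higher with upper-quartile factors, total counts only or the GC and length trend removed. The textbook MYC targets had 32 to 40 lower and 3 higher in every alternative. With CPM per kilobase, 2 of 10 members kept their rank in CEBPG siRNA cells and 3 of 10 in negative control cells. The replicate number as a block changed no call of a member (MYC -1.133, adjusted p = 3.59e-09). Deviations of same-numbered libraries correlated at 0.036 over genes, and no label says that the numbers mark a shared culture. Depth limits MYCL, with 42 to 74 counts per library.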
